A study of Elaeis oleifera with 12 samples.

Results

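The polygalacturonase family was examined in the abscission zone (AZ) at the base of the fruit of Elaeis oleifera, the American oil palm. Members were the loci whose description holds the word polygalacturonase, leaving out inhibitors of the enzyme, its non-catalytic subunits and BURP-domain proteins, and 53 of the 29040 loci met this rule. RNA came from the AZ of 2 palms of the same progeny, the non-shedding palm 26-11 (NSd) and the shedding palm 28-7 (Sd), each at the ripe and the pre-ripe (PR) stage. The groups were ripe NSd (replicates 4 to 6), PR NSd (1 to 3), ripe Sd (10 to 12) and PR Sd (7 to 9), with 3 libraries each, and no other genotype or treatment was used. Each library pooled about 50 AZ pieces, about 3 g of tissue, and the 3 libraries of a group were samplings of 1 bunch of 1 palm. Only the spread between samplings of a bunch enters the p-values, and palm and phenotype cannot be told apart. The reads were mapped to the transcriptome of the African oil palm, E. guineensis. The values are RPKM, the reads at a locus scaled to its transcript length and to the aligned reads of the library. Reads lost through sequence differences between the species were not measured at any locus. Ranks, sums and the absence of reads at a locus therefore hold only for the reads that aligned.

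Polygalacturonases cut homogalacturonan, the backbone of the pectin that holds neighbouring plant cells together in the middle lamella. Endo-acting enzymes cut within the chain and loosen the wall fast, while exo-acting enzymes remove galacturonic acid from the non-reducing end. Pectinesterases act before them by removing methyl groups, pectate lyases cut the same backbone by another reaction, and polygalacturonase-inhibiting proteins bind fungal polygalacturonases at the wall. In Arabidopsis the enzymes are known from the shedding of floral organs, from the opening of pods and anthers and from the separation of pollen. In E. guineensis the transcript of PG4 is known to accumulate in the AZ as ripe fruit separate, and it is also expressed in the mesocarp.

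Of the 53 loci, 21 had a mean of at least 1 RPKM in at least 1 group. A share of 39.6% of the family reached this level, against 67.5% of all loci. The highest group mean was at least 20 RPKM at 7 loci, between 5 and 20 RPKM at 7 and between 1 and 5 RPKM at 7. A further 20 loci were above 0 but under 1 RPKM in every group, and 12 (22.6%, against 8.31% of all loci) were at 0 in all 12 libraries. At a transcript of 1500 bases a count of 0 allows up to 0.0588 to 0.105 RPKM in 1 library (the value of 3 reads, counting error only). The filter of at least 1 RPKM in at least 1 library, which a locus can pass through 1 high library, kept 23 of the 53 loci for testing.

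The classes named in the descriptions were expressed unequally. All 17 loci described only as probable polygalacturonase were above 0, and 9 of them had a group mean of at least 1 RPKM. Of the 13 loci described as polygalacturonase or polygalacturonase-like, which include PG4, 5 reached 1 RPKM and 4 were at 0. The 7 exopolygalacturonases split into 3 loci of at least 1 RPKM and 4 loci at 0, among them the locus named for clone GBGE184. Of the 8 loci named after At1g48100, an Arabidopsis polygalacturonase of stomatal development, 1 reached 1 RPKM and all were above 0. Both loci named after At1g80170 reached 1 RPKM, as did 1 of the 2 named after QRT3, the Arabidopsis enzyme that frees pollen grains from the tetrad. The locus named after ADPG1 (LOC105039538), an Arabidopsis polygalacturonase of pod and anther opening, was at 0 in all 12 libraries, and so were both loci named after At3g15720 and the locus named after At2g43860. Whether similar copies share reads was not tested, so that the level of a single copy is uncertain where copies resemble each other.

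The PR NSd libraries stood apart in the whole table, and every comparison that uses them is read beside the following values. Aligned reads ran from 19353747 to 27085006 in ripe NSd, 19090375 to 22609713 in PR NSd, 19672149 to 24129824 in ripe Sd and 21253570 to 34004517 in PR Sd. The median RPKM over all loci was 3.10 to 3.51 in ripe NSd, 2.11 to 2.55 in PR NSd, 3.35 to 3.94 in ripe Sd and 3.35 to 3.53 in PR Sd. Loci described as ribosomal RNA summed to 4186 to 50560 RPKM in ripe NSd, 43212 to 122712 RPKM in PR NSd, 8501 to 23971 RPKM in ripe Sd and 16216 to 20152 RPKM in PR Sd, with ripe NSd replicate 6 (50560 RPKM) within the range of PR NSd. The summed level of 51 loci of photosynthetic tissue (photosystem proteins and chlorophyll a-b binding proteins, of which LOC105037794 and LOC105037935 were at 0) was 3541 to 4597 RPKM in ripe NSd, 560 to 601 RPKM in PR NSd, 2579 to 3929 RPKM in ripe Sd and 4044 to 4424 RPKM in PR Sd. Of its 37 tested loci, 10 were higher in ripe than in PR NSd, where 7.77% of all tested loci were higher. Another count was 13 of the 37 lower in PR NSd than in PR Sd, where 9.53% of all tested loci were lower. Mesocarp oil synthesis (69 loci, 6 at 0) summed to 3623 to 5040 RPKM in ripe NSd, 2837 to 2953 RPKM in PR NSd, 2169 to 3434 RPKM in ripe Sd and 3849 to 3919 RPKM in PR Sd. This list was picked by words such as acyl carrier protein and oleosin. It also took mitochondrial acyl carrier proteins, so its sum does not mark mesocarp alone. Lignin and secondary wall (79 loci, 8 at 0) summed to 1018 to 1174 RPKM in ripe NSd, 690 to 862 RPKM in PR NSd, 1166 to 1348 RPKM in ripe Sd and 1164 to 1176 RPKM in PR Sd. Their part in the changes of the polygalacturonases was not tested. Of the markers of the AZ itself, the 7 loci of the NPR5 type, the family of BLADE-ON-PETIOLE, were low: 3 were at 0 in every library and the highest, LOC105057644, averaged 2.98 RPKM in ripe NSd, 1.55 RPKM in PR NSd, 2.14 RPKM in ripe Sd and 1.19 RPKM in PR Sd. The pattern also took 2 loci of the ribosome biogenesis protein BOP1, which is another protein. No description matched the words HAESA or IDA, and loci of these types under other names were not searched for.

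PG4 was the most abundant polygalacturonase transcript over the 12 libraries (mean 84.8 RPKM), and 96.9% of all loci had a lower mean in the ripe NSd AZ and 93.1% in the PR NSd AZ. Its level was 239.5, 101 and 70.3 RPKM in ripe NSd libraries and 42.1, 54.3 and 84.4 RPKM in PR NSd libraries. In the shedding palm it was 75.6, 146 and 60.4 RPKM in ripe libraries and 61.1, 53.9 and 28.9 RPKM in PR libraries. The ripe means were higher than the PR means in both palms, but in both palms the libraries of the stages overlapped. The log2 fold change of ripe against PR, on the log2(RPKM + 1) scale used for every test here, was 1.03 ± 0.46 in NSd (SE, n = 3 each, limma adjusted p = 0.082) and 0.92 ± 0.46 in Sd (limma adjusted p = 0.264). Between ripe NSd and ripe Sd it was 0.45, with a 95% interval of -0.55 to 1.45 (limma adjusted p = 0.559). PG4 was therefore expressed in the AZ samples of the palm that does not shed its fruit, and a difference between the ripe palms was not detectable with this spread. In bulk tissue, transcript of AZ cells and of adjoining mesocarp cannot be told apart.

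LOC105056882, described as polygalacturonase-like, had the second highest level. It reached 124, 71.8 and 44.9 RPKM in ripe NSd libraries, against 4.64, 16.8 and 20.8 RPKM in PR NSd libraries, and 82.7, 161 and 183 RPKM in ripe Sd libraries, against 38.2, 26.8 and 19.0 RPKM in PR Sd libraries. In both palms every ripe library was above every PR library. The ratio of ripe to PR means was 5.70 in NSd and 5.08 in Sd. The locus rose with ripening in NSd (log2 fold change 2.53 ± 0.51, SE, n = 3 each, limma adjusted p = 0.00205), a change in which more cells of a type and more RNA per cell cannot be told apart in bulk tissue. The call was lost without replicate 4 (log2 fold change 2.15, limma adjusted p = 0.0104). The change in Sd was 2.28 ± 0.51 and did not pass (limma adjusted p = 0.0217). It passed without replicate 1, a PR NSd library that enters the fit only through the shared spread (limma adjusted p = 0.00719). The difference between the 2 changes was 0.25, with a 95% interval of -1.32 to 1.82 (limma adjusted p = 0.81). It was first of the family in the ripe Sd AZ and second, after PG4, in the ripe NSd AZ, although the libraries of both loci overlapped in each of these groups.

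LOC105056874, also polygalacturonase-like, had the same order of groups at a lower level. It was at 55.8, 13.8 and 5.88 RPKM in ripe NSd libraries, against 0.887, 3.20 and 5.03 RPKM in PR NSd libraries, and at 11.9, 38.6 and 38.0 RPKM in ripe Sd libraries, against 6.51, 3.77 and 2.39 RPKM in PR Sd libraries. The stages did not overlap in either palm, and the libraries within a stage differed widely. The log2 fold changes of 2.30 ± 0.70 in NSd (limma adjusted p = 0.0186) and 2.45 ± 0.70 in Sd (limma adjusted p = 0.0567) were among the largest of the family and did not pass. Without replicate 6 the NSd change was 3.00 and passed (limma adjusted p = 0.00508). LOC105034928, described as polygalacturonase, stayed between 0.370 and 5.51 RPKM in the 12 libraries, with overlapping stages in both palms. LOC105049847, polygalacturonase-like, was at 0 in 2 of the 3 PR Sd libraries and at 0.0432 RPKM in the third, and its other libraries ran from 0 (replicate 1) to 4.07 RPKM (replicate 3).

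**Figure D1:**
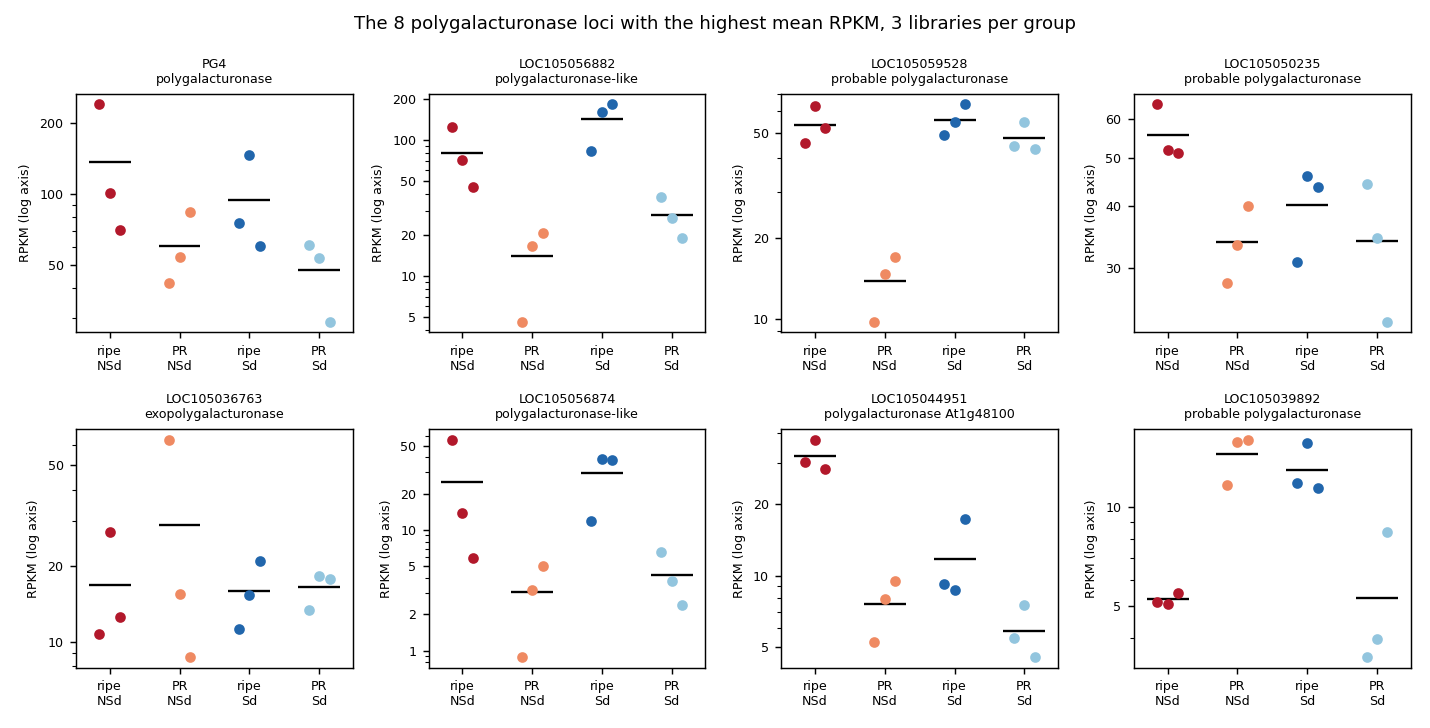
RPKM on a log axis of the 8 polygalacturonase loci with the highest mean, 1 point per library and a black line at the arithmetic mean of 3 libraries, for ripe NSd, PR NSd, ripe Sd and PR Sd. Within each palm, LOC105056882 and LOC105056874 were higher in every ripe than in every PR library and PG4 overlapped between stages. LOC105059528 was low in the PR NSd libraries alone (9.75 to 17.1 RPKM).

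Within each group the level of PG4 differed between libraries, and some members had their highest library in the same place. The highest library of PG4 was replicate 4 in ripe NSd, 3 in PR NSd, 11 in ripe Sd and 7 in PR Sd. Of the 22 other tested members, 5 (22.7%) had the same highest library in all 4 groups, namely LOC105050235, LOC105056874, LOC105035417, LOC105034928 and LOC105049847, against 2.96% of all tested loci. This count was chosen after the values were seen, and it is given as a description with no test.

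The probable polygalacturonases, whose descriptions give no finer role, held all 5 loci whose stage change differed between the palms in the stage by palm interaction, the log2 fold change in NSd minus that in Sd. The interaction was higher in 4 and lower in 1 of the 23 tested members, where 9.19% of all tested loci were higher and 4.07% lower. LOC105059528 was at 45.8, 62.8 and 52.1 RPKM in ripe NSd libraries and 9.75, 14.7 and 17.1 RPKM in PR NSd libraries. In Sd it was at 49.1, 54.9 and 63.8 RPKM in ripe libraries and 44.4, 54.7 and 43.3 RPKM in PR libraries. The PR NSd libraries were low and the other 9 libraries lay together. The locus rose with ripening in NSd (log2 fold change 1.90 ± 0.19, SE, n = 3 each, limma adjusted p = 2.4e-05) and was lower in PR NSd than in PR Sd (-1.73 ± 0.19, limma adjusted p = 3.2e-05). Its change in Sd was 0.23 ± 0.19 (limma adjusted p = 0.535), and the interaction was 1.67 ± 0.27 (limma adjusted p = 0.000912).

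LOC105043311 had opposite stage changes in the palms. It was at 5.96, 5.45 and 5.72 RPKM in ripe NSd libraries and 2.48, 1.32 and 1.45 RPKM in PR NSd libraries, against 7.77, 7.97 and 6.32 RPKM in ripe Sd libraries and 14.9, 13.1 and 9.68 RPKM in PR Sd libraries. The stages did not overlap in either palm, and PR NSd was the lowest group and PR Sd the highest. The locus rose with ripening in NSd (1.31 ± 0.18, limma adjusted p = 0.000203), while its value in Sd was -0.68 ± 0.18 (limma adjusted p = 0.0435, which did not pass), and the interaction was 1.99 ± 0.26 (limma adjusted p = 0.000253). PR NSd was lower than PR Sd by a ratio of means of 0.139 (log2 fold change -2.31 ± 0.18, limma adjusted p = 3e-06). At the ripe stage the difference between the palms was -0.31, with a 95% interval of -0.71 to 0.09 (limma adjusted p = 0.288).

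LOC105039892 had the reverse order. It was at 5.15, 5.07 and 5.49 RPKM in ripe NSd libraries and 11.7, 15.8 and 16.0 RPKM in PR NSd libraries, against 11.8, 15.6 and 11.4 RPKM in ripe Sd libraries and 3.50, 3.97 and 8.39 RPKM in PR Sd libraries. Ripe NSd and PR Sd were low, PR NSd and ripe Sd were high, and the groups of each comparison did not overlap. The locus fell with ripening in NSd (-1.30 ± 0.24, SE, n = 3 each, limma adjusted p = 0.00126), was higher in PR NSd than in PR Sd (1.37 ± 0.24, limma adjusted p = 0.000743) and had an interaction of -2.52 ± 0.34 (limma adjusted p = 0.000341). The change in Sd of 1.22 (limma adjusted p = 0.0134) and the difference of -1.15 between ripe NSd and ripe Sd (limma adjusted p = 0.0116) did not pass. Without replicate 9, the highest PR Sd library, the change in Sd was 1.55 and passed (limma adjusted p = 0.000866), and the difference between the ripe palms also passed (limma adjusted p = 0.00109). That difference passed as well without replicate 7 (limma adjusted p = 0.00912) and with only the compared groups in the fit (limma adjusted p = 0.00292). The locus is on the study's first list of loci that changed in Sd and differed between the ripe palms in the same libraries. Its direction is therefore not independent evidence. That list came before the study's filter on RPKM, and a place on it does not make the locus a chosen candidate.

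LOC105035417 was at 13.6, 11.7 and 9.16 RPKM in ripe NSd libraries and 4.80, 4.42 and 6.45 RPKM in PR NSd libraries, and at 5.53, 6.26 and 6.07 RPKM in ripe Sd libraries and 10.2, 9.19 and 5.41 RPKM in PR Sd libraries. The stages did not overlap in NSd and overlapped in Sd through replicate 9. The locus rose with ripening in NSd (1.00 ± 0.21, limma adjusted p = 0.00265), at the edge of the fold limit, and its value in Sd was -0.38 ± 0.21 (limma adjusted p = 0.327). The interaction was 1.38 ± 0.30 (limma adjusted p = 0.00459). Both calls were unstable: the one in NSd was lost without replicate 1, 2, 4 or 5, and the interaction was lost without any 1 of replicates 1, 2, 4, 5, 7, 8, 10, 11 and 12.

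At the lower end of expression, LOC105054213 was at 1.43, 0.858 and 0.683 RPKM in ripe NSd libraries and 0.164, 0.295 and 0.332 RPKM in PR NSd libraries, against 0.504, 0.403 and 0.495 RPKM in ripe Sd libraries and 0.824, 1.07 and 1.23 RPKM in PR Sd libraries. The stages did not overlap in either palm and ran in opposite directions. Its interaction was 1.11 ± 0.22 (limma adjusted p = 0.00305), a call that fell under the fold limit without replicate 4 (0.96). The stage change in NSd was 0.64 ± 0.16 (limma adjusted p = 0.0065), under the fold limit, and that in Sd was -0.47 ± 0.16 (limma adjusted p = 0.0977). At such low levels the 1 RPKM added before the logarithm decides the size, and the ratio of means of ripe to PR was 3.76 in NSd. With 0.1 RPKM added, the stage change in NSd was 1.56 (limma adjusted p = 0.00327), the difference between the PR palms was -1.67 (limma adjusted p = 0.00182) against -0.69 with 1 RPKM added, and the interaction was 2.56 (limma adjusted p = 0.00215), and all of these passed.

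LOC105039387 was called between the palms at both stages and not for ripening in either palm. It passed the filter for testing only through libraries of Sd, the palm in which it was high. Its place among the tested loci is therefore not independent of the palm difference. It was at 0.0548, 0 and 0.0249 RPKM in ripe NSd libraries and at 0 in all 3 PR NSd libraries, against 1.26, 1.18 and 1.18 RPKM in ripe Sd libraries and 0.820, 1.04 and 1.17 RPKM in PR Sd libraries. Every Sd library was above every NSd library, the ripe Sd libraries lay just above the PR Sd libraries, and the NSd values were at or under the level that a count of 0 allows. The log2 fold change was -1.10 ± 0.12 between ripe NSd and ripe Sd (SE, n = 3 each, limma adjusted p = 0.000491) and -1.003 ± 0.122 between PR NSd and PR Sd (limma adjusted p = 6.3e-05). These fitted sizes depend on the 1 RPKM added before the logarithm (-3.46 between the PR palms with 0.1 RPKM) and are no bound on the fold. The difference between the PR palms fell under the fold limit without replicate 8 (-0.99) or 9 (-0.95), and after rescaling by the median ratio of loci (-0.95).

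**Figure D2:**
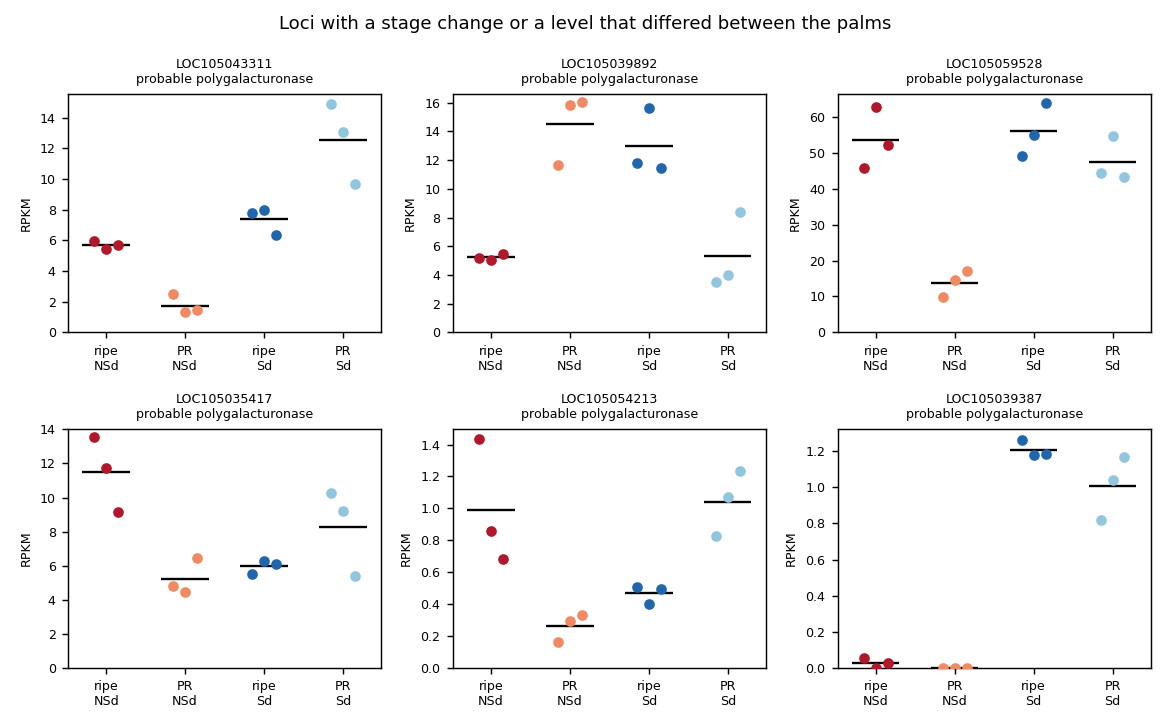
RPKM on a linear axis of 6 probable polygalacturonases, 1 point per library and a black line at the mean of 3 libraries, for ripe NSd, PR NSd, ripe Sd and PR Sd. LOC105043311 and LOC105054213 had stages in opposite order in the palms, LOC105039892 was low in ripe NSd and PR Sd, LOC105059528 was low in PR NSd only, and LOC105039387 was near 0 in all 6 NSd libraries.

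Of the other probable polygalacturonases, LOC105050235 was abundant in every group. It was at 64.2, 52.0 and 51.2 RPKM in ripe NSd libraries and 28.1, 33.5 and 40.0 RPKM in PR NSd libraries, and at 30.9, 46.1 and 43.7 RPKM in ripe Sd libraries and 44.4, 34.6 and 23.5 RPKM in PR Sd libraries. The ripe NSd libraries were the highest and the other groups overlapped, and its log2 fold change in NSd of 0.71 (limma adjusted p = 0.0217) was under the fold limit. LOC105042037 averaged 8.46 ± 0.737 RPKM in ripe NSd and 4.10 ± 1.28 RPKM in PR NSd (SD, n = 3 each), and 5.48 ± 0.405 RPKM in ripe Sd and 5.07 ± 0.983 RPKM in PR Sd. Its log2 fold change in NSd of 0.92 was just under the fold limit (limma adjusted p = 0.00211), and it passed without replicate 3, at 1.08, and with 0.1 RPKM added, at 1.07. LOC105037614 averaged between 4.35 RPKM in PR NSd and 6.99 RPKM in ripe NSd, with stages that overlapped in both palms.

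LOC105044951 was the only member named after At1g48100 above 1 RPKM in a group mean, and it set the ripe palms apart. It was at 30.2, 37.6 and 28.1 RPKM in ripe NSd libraries and 5.23, 7.94 and 9.46 RPKM in PR NSd libraries, against 9.24, 8.72 and 17.4 RPKM in ripe Sd libraries and 5.46, 7.48 and 4.52 RPKM in PR Sd libraries. Every ripe NSd library was above every other library. The locus rose with ripening in NSd (log2 fold change 1.97 ± 0.26, SE, n = 3 each, limma adjusted p = 0.00016) and exceeded its ripe Sd level in ripe NSd by a ratio of means of 2.71 (1.42 ± 0.26, limma adjusted p = 0.00676). The call between the ripe palms was lost without replicate 2, 4, 5, 6, 10 or 11 (limma adjusted p up to 0.0354) and kept its direction in each case. In Sd the change was 0.86 ± 0.26 (limma adjusted p = 0.0714), and the interaction of 1.11 ± 0.37 did not pass (limma adjusted p = 0.0383), although it did without replicate 12 (1.40, limma adjusted p = 0.00832). The other 7 members of this class stayed under 1 RPKM in every group, the highest being LOC105047163 with 0.809 ± 0.0817 RPKM in ripe Sd.

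The QRT3 locus LOC105039698 averaged 3.42 ± 2.07 RPKM in ripe NSd and 1.82 ± 1.40 RPKM in PR NSd, and 7.59 ± 3.41 RPKM in ripe Sd and 2.11 ± 0.222 RPKM in PR Sd (SD, n = 3 each). The stages overlapped in NSd and did not in Sd, where the ratio of means was 3.60 and the log2 fold change of 1.38 ± 0.40 did not pass (limma adjusted p = 0.0593). The interaction of -0.71 had a 95% interval of -1.95 to 0.53. The At1g80170 locus LOC105058820 averaged 0.992 RPKM in ripe NSd and 0.718 RPKM in PR NSd, against 1.41 RPKM in ripe Sd and 1.79 RPKM in PR Sd, and its difference of -0.70 between the PR palms (limma adjusted p = 0.00228) was under the fold limit. With 0.1 RPKM added it was -1.22 and passed (limma adjusted p = 0.00281), and the libraries of the PR palms did not overlap. The other At1g80170 locus, LOC105045322, averaged between 1.08 and 1.36 RPKM in the 4 groups.

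The exopolygalacturonases shared a single high library. LOC105036763 was at 10.7, 27.2 and 12.5 RPKM in ripe NSd libraries and 62.9, 15.4 and 8.72 RPKM in PR NSd libraries, and at 11.2, 15.3 and 20.9 RPKM in ripe Sd libraries and 13.4, 18.2 and 17.8 RPKM in PR Sd libraries. LOC105039487 was at 17.0, 2.39 and 1.18 RPKM in PR NSd libraries and at 0.382 to 2.40 RPKM in the other 9, and LOC105039444 was at 4.56, 0.560 and 0.133 RPKM in PR NSd libraries and at 0.105 to 0.701 RPKM in the other 9. All 3 loci were highest in replicate 1 of PR NSd, and all 3 had their highest ripe NSd value in replicate 5. Their summed level was 84.4 RPKM in replicate 1 and 10.03 to 30.3 RPKM in the other 11 libraries. None of the 3 passed in any comparison. Without replicate 3, LOC105039487 passed between PR NSd and PR Sd (2.14, limma adjusted p = 0.00892), on replicates 1 and 2 of PR NSd. Replicate 1 also had the highest summed level at loci described as ribosomal RNA, 122712 RPKM against 43212 to 43312 RPKM in replicates 2 and 3. The summed level of the pollen and flower list (16 loci, of which 2 described as TAPETUM DETERMINANT 1-like were at 0) was 197 to 227 RPKM in ripe NSd, 273 to 343 RPKM in PR NSd, 272 to 347 RPKM in ripe Sd and 154 to 274 RPKM in PR Sd. Their part in the high library was not tested.

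**Figure D3:**
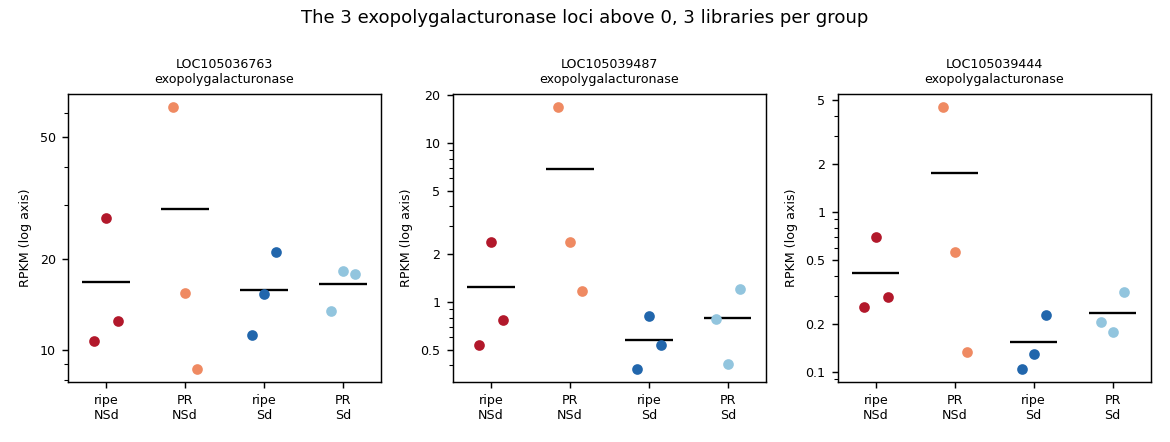
RPKM on a log axis of the 3 exopolygalacturonase loci above 0, 1 point per library and a black line at the arithmetic mean of 3 libraries, for ripe NSd, PR NSd, ripe Sd and PR Sd. In each locus the highest point is replicate 1 of PR NSd, at 62.9, 17.0 and 4.56 RPKM, and replicates 2 and 3 of that group are far lower, at 8.72 to 15.4, 1.18 to 2.39 and 0.133 to 0.560 RPKM.

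The remaining 20 expressed loci were under 1 RPKM in every group mean. The highest single library among them had 1.16 RPKM (LOC105048303, ripe NSd replicate 5), and 4 of the 20 were above 0 in 1 library only. Of the 2 of these loci that were tested, LOC105048303 and LOC114913359, neither passed in any comparison. LOC105035836 was at 0.657 RPKM in replicate 4 of ripe NSd, 0.743 RPKM in replicate 3 of PR NSd and 0.0420 RPKM in replicate 10 of ripe Sd, and at 0 in the other 9 libraries.

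The comparisons across the whole family were read against the share of all 20495 tested loci that passed the same rule (a change past 1 or -1 on the log2 scale with an adjusted p under 0.01). For ripe against PR in NSd, 5 of the 23 tested members were higher and 1 was lower, where 7.77% of all loci were higher and 3.07% lower. The median log2 fold change was 0.56 for the members and 0.31 for all tested loci, and the members' changes are read beside that shift of the whole table. After rescaling by the median ratio of loci, 4 members were higher and 1 lower, while all loci turned from 1592 higher and 630 lower (71.6% higher) to 896 higher and 1064 lower (45.7% higher). LOC105035417, at 0.69 on that scale, was the member that dropped below the fold limit.

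For ripe against PR in Sd, no member was called with limma in either direction, where 0.659% of all loci were higher and 0.429% lower. At an unadjusted p under 0.05, 5 of the 23 members were higher and 2 lower, where 12.5% of all tested loci were higher and 10.1% lower, and the median was 0.16 for the members and 0.03 for all loci. At an adjusted p under 0.05 with no fold limit 3 members passed, LOC105056882 and LOC105039892 as higher and LOC105043311 as lower. A count of 1 came from leaving out replicate 1 (LOC105056882) or replicate 9 (LOC105039892).

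Between ripe NSd and ripe Sd, 1 member was higher (LOC105044951) and 1 lower (LOC105039387), where 0.815% of all loci were higher and 1.63% lower, with a median of 0.01 for the members and -0.06 for all loci. Between PR NSd and PR Sd, 1 member was higher and 3 were lower, where 3.36% of all loci were higher and 9.53% lower. The medians were -0.20 for the members and -0.35 for all loci. Rescaling left 1 member higher and 2 lower, and turned all loci from 689 higher and 1953 lower (26.1% higher) to 1177 higher and 939 lower (55.6% higher).

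In the stage by palm interaction, 4 members had a higher change in NSd (LOC105043311, LOC105059528, LOC105035417 and LOC105054213) and LOC105039892 had a lower one, beside the shares of all loci given above. The median was 0.11 for the members and 0.30 for all loci. Rescaling left 3 members higher and 1 lower, and turned all loci from 1884 higher and 835 lower (69.3% higher) to 1017 higher and 1265 lower (44.6% higher). Without replicate 4 the count was 3. The interaction and the comparisons of its groups use the same libraries.

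**Figure D4:**
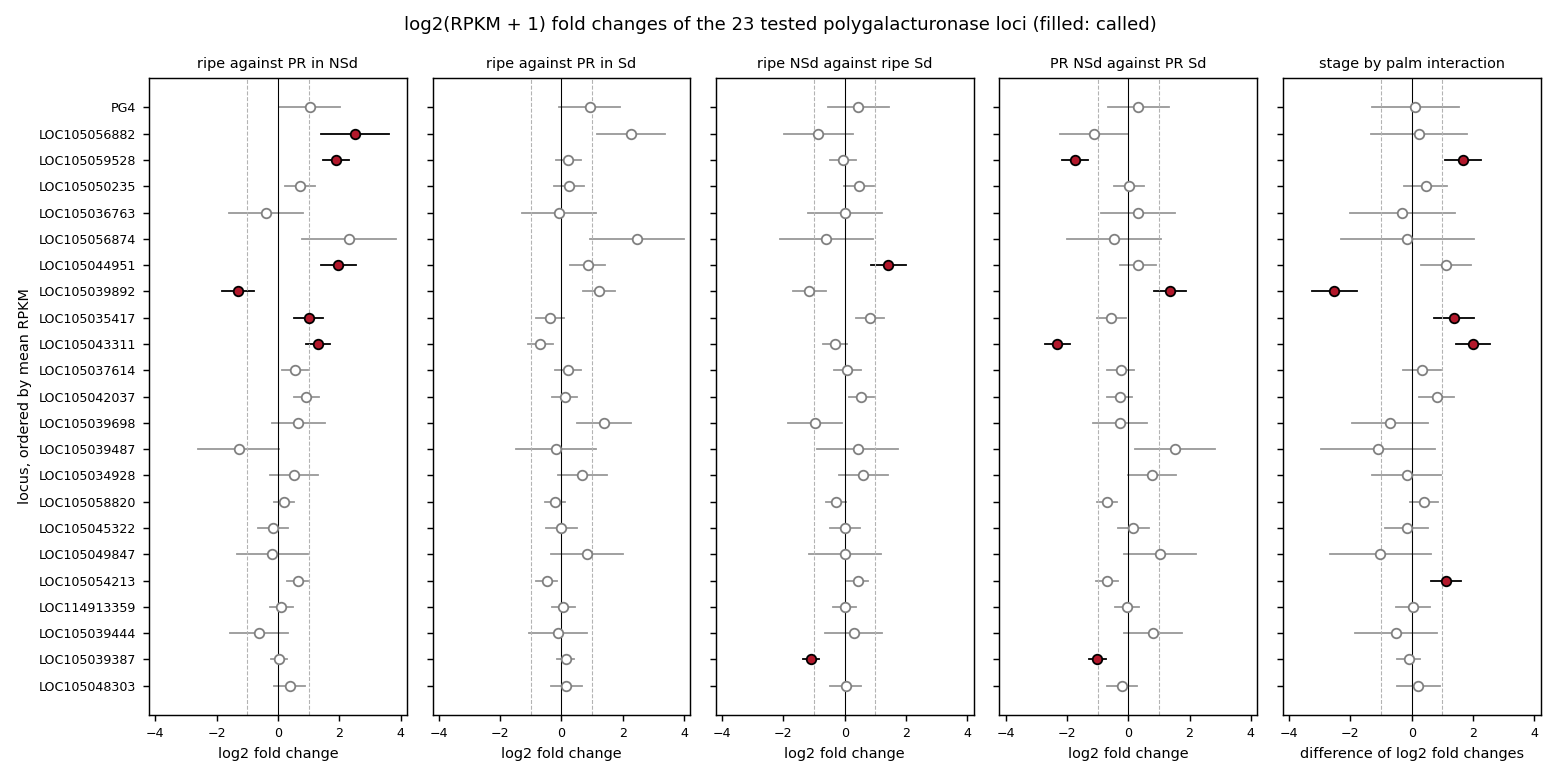
Fold changes on the log2(RPKM + 1) scale of the 23 tested members, ordered by mean RPKM, in the 5 comparisons, with 95% intervals from limma and dashed lines at -1 and 1. Filled points were called: 6 in ripe against PR in NSd, 0 in ripe against PR in Sd, 2 between the ripe palms, 4 between the PR palms and 5 in the interaction.

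Summed over the 53 loci, polygalacturonase transcripts were more abundant in ripe than in PR libraries of both palms. The sum was 634, 423 and 308 RPKM in ripe NSd libraries and 208, 187 and 236 RPKM in PR NSd libraries, against 322, 535 and 483 RPKM in ripe Sd libraries and 265, 249.5 and 184 RPKM in PR Sd libraries. The stages did not overlap in either palm, and the ripe palms overlapped over nearly their whole range. Without PG4 the sum averaged 318 ± 78.4 RPKM in ripe NSd and 150.0 ± 16.6 RPKM in PR NSd, and 352 ± 93.7 RPKM in ripe Sd and 185 ± 26.1 RPKM in PR Sd (SD, n = 3 each). The 4 most abundant loci (PG4, LOC105056882, LOC105059528 and LOC105050235) made up 68.0% to 74.8% of the sum in ripe NSd, 40.7% to 68.7% in PR NSd, 72.5% to 76.3% in ripe Sd and 62.4% to 71.1% in PR Sd. LOC105056882 alone held 14.6% to 19.6% in ripe NSd and 2.24% to 8.98% in PR NSd, against 25.7% to 37.8% in ripe Sd and 10.3% to 14.4% in PR Sd. It averaged 142 RPKM in ripe Sd and 28.0 RPKM in PR Sd, where the whole sum averaged 447 and 233 RPKM. In NSd it averaged 80.3 RPKM in ripe and 14.1 RPKM in PR libraries, where the sum averaged 455 and 210 RPKM. A higher sum is therefore not a rise of every member.

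A single polygalacturonase inhibitor was abundant. LOC105050208 was at 69.9, 117 and 90.8 RPKM in ripe NSd libraries and 226, 273 and 197 RPKM in PR NSd libraries, against 56.0, 115 and 80.7 RPKM in ripe Sd libraries and 65.4, 71.0 and 41.5 RPKM in PR Sd libraries. The PR NSd libraries were the highest, above all 9 others. The inhibitor fell with ripening in NSd (log2 fold change -1.33 ± 0.28, SE, n = 3 each, limma adjusted p = 0.00244), was higher in PR NSd than in PR Sd (1.97 ± 0.28, limma adjusted p = 0.000161) and had an interaction of -1.80 ± 0.39 (limma adjusted p = 0.00464). The summed level of the family divided by that of this locus was 3.39 to 9.07 in ripe NSd libraries and 0.683 to 1.20 in PR NSd libraries, against 4.64 to 5.99 in ripe Sd libraries and 3.51 to 4.43 in PR Sd libraries. The other 4 inhibitor loci had group means of at most 1.12 RPKM.

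**Figure D5:**
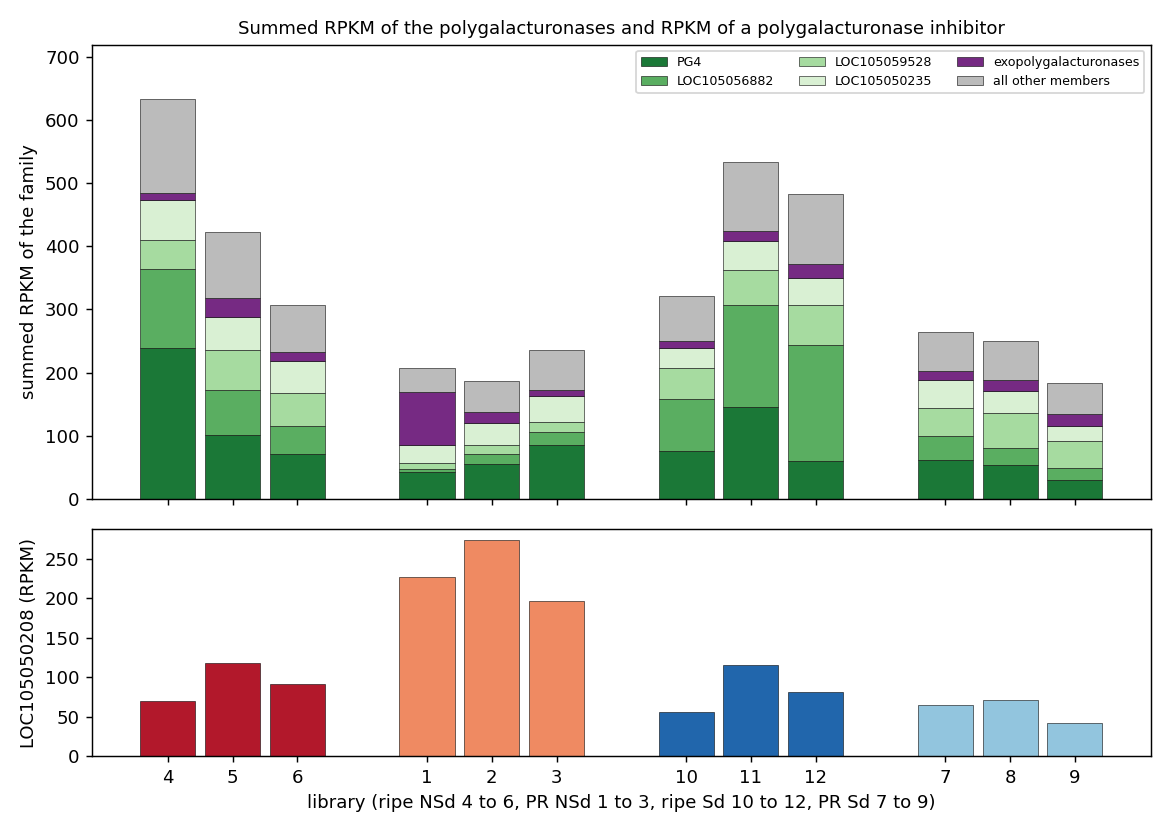
Top, summed RPKM of the 53 polygalacturonase loci in each of the 12 libraries, stacked by the 4 most abundant loci, the exopolygalacturonases and all other members, with the groups ripe NSd, PR NSd, ripe Sd and PR Sd. Bottom, RPKM of the polygalacturonase inhibitor LOC105050208 in the same libraries. The ripe sums (308 to 634 RPKM in NSd, 322 to 535 RPKM in Sd) lie above the PR sums (187 to 236 RPKM in NSd, 184 to 265 RPKM in Sd), and the inhibitor is highest in PR NSd (197 to 273 RPKM).

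Other genes of pectin metabolism are given by lists made from the same descriptions. For ripe against PR in Sd, none of their 87 tested loci was called with limma, and at an unadjusted p under 0.05, 26 were higher and 2 lower, where 12.5% of all tested loci were higher and 10.1% lower. The counts below stand beside 7.77% of all tested loci higher and 3.07% lower in ripe against PR NSd, and 3.36% higher and 9.53% lower between the PR palms, with median log2 fold changes over all loci of 0.31 and -0.35. Nothing particular to a list is read from them. Of the 18 tested pectinesterases, 2 rose and 1 fell with ripening in NSd, and 1 was higher and 2 were lower in PR NSd than in PR Sd. LOC105057449, a pectinesterase, averaged 1.01 RPKM in ripe NSd and had 3.92 to 5.95 RPKM in PR NSd libraries, against 1.31 RPKM in ripe Sd and 0.149 RPKM in PR Sd (interaction -2.59, limma adjusted p = 0.000106). LOC105046902 had the opposite order, with 2.07 RPKM in ripe NSd and 0.446 RPKM in PR NSd, against 3.23 RPKM in ripe Sd and 6.11 RPKM in PR Sd (interaction 1.84, limma adjusted p = 0.00072). LOC105040895 rose in NSd, to 9.06 RPKM in ripe against 2.35 RPKM in PR libraries (1.60, limma adjusted p = 1.6e-05). Of the 7 tested pectinesterase inhibitors, LOC105054519 was higher in PR NSd (16.1 RPKM) than in PR Sd (6.34 RPKM) and none was called for ripening in NSd.

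Pectate lyases, which cut the same backbone, were few. Of the 6 tested, LOC105051305 was lower in PR NSd (0.734 ± 1.13 RPKM) than in PR Sd (8.80 ± 4.31 RPKM, SD, n = 3 each) and no other call was made. Of the 11 tested pectin acetylesterases, which remove acetyl groups, 1 rose in NSd, and 1 was higher and 3 were lower in PR NSd than in PR Sd. LOC105060829 averaged 12.3 RPKM in ripe NSd and 1.80 RPKM in PR NSd (2.21, limma adjusted p = 1.8e-05). LOC105044416 was lower in PR NSd (1.80 RPKM) than in PR Sd (5.52 RPKM), and LOC105035592 was higher in PR NSd (6.26 RPKM) than in PR Sd (2.54 RPKM). The 1 tested rhamnogalacturonate lyase was not called in any comparison.

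Of the 13 tested beta-galactosidases, which trim pectin side chains, 3 rose with ripening in NSd and none fell, and 5 were lower in PR NSd than in PR Sd. LOC105037786, the most abundant of the 3, averaged 44.1 RPKM in ripe NSd and 19.6 RPKM in PR NSd, against 62.5 RPKM in ripe Sd and 43.7 RPKM in PR Sd (1.11 in NSd, limma adjusted p = 0.000196). LOC105042251 averaged 3.74 RPKM in ripe NSd and 0.0823 RPKM in PR NSd, and LOC105034363 averaged 3.56 RPKM in ripe NSd and 0.244 RPKM in PR NSd. Of the 29 tested galacturonosyltransferases, 3 rose and 1 fell with ripening in NSd. Enzymes of this type build pectin, but the list also took LOC105054806, described as xyloglucan-specific. LOC105052351 averaged 3.25 RPKM in ripe NSd and 0.739 RPKM in PR NSd, and LOC105058323 averaged 7.14 RPKM in ripe NSd and 2.94 RPKM in PR NSd. LOC105044885 was lower in PR NSd (0.123 RPKM) than in PR Sd (1.48 RPKM). Between ripe NSd and ripe Sd, these lists held 1 higher galacturonosyltransferase and 1 lower beta-galactosidase, and no other call. Of all tested loci, 0.815% were higher and 1.63% lower in this comparison. At an unadjusted limma p under 0.05, 6 of the 87 tested loci of the lists were higher and 23 lower. The shares of all tested loci at that p were 10.3% higher and 18% lower.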

How the data were processed

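Total RNA of the AZ was sequenced as single reads in 12 libraries. Reads trimmed by the authors (bcl2fastq 2.20.0.422) were aligned to the E. guineensis transcriptome with BWA-MEM and counted with SAMtools, transcripts were summed by locus, and the deposited values are RPKM for 29040 loci, 1 file per library. No read counts were used. Aligned reads per library (19090375 to 34004517) were recovered from the steps between low RPKM values, and the value of 1 read at a transcript of 1500 bases was 0.0196 to 0.0349 RPKM, which sets the precision of low loci.

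Members and gene lists are patterns on the descriptions, chosen with earlier results of these data known. The limma package (3.58.1, in R 4.3.3) was run with a variance trend on log2(RPKM + 1), with 1 mean per group, in a single fit of the 12 libraries. It covered 20495 loci, those with 1 RPKM or more in any library. Calls needed a Benjamini-Hochberg adjusted p under 0.01 over these loci together with a log2 change past 1 or -1. The fit was tested on simulated data. Values are given per library for every member called in a comparison and for the 8 members with the highest mean, other members of at least 1 RPKM by group, the rest by counts, and up to 3 called loci per pectin list with the smallest p. Other loci named were chosen after their values were seen. Alternatives were no filter, only the compared groups, a pseudocount of 0.1 RPKM, an adjusted p under 0.05 with no fold limit, RPKM rescaled by the median ratio, limma without a trend or with robust moderation, a fit without the PR NSd libraries and each library left out in turn. Sequences of the members were not analysed here. Tables and plots used Python 3.11.15, pandas 2.3.3 and matplotlib 3.10.9.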

Additional observations from a re-analysis of the deposited data

Results flagged for a closer look

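The stage change of 5 of the 23 tested polygalacturonases differed between the palms by the interaction term of limma (log2 fold change of ripe against PR in NSd minus that in Sd). It was higher in 4 members and lower in 1, where 9.19% of all tested loci were higher and 4.07% lower. Nothing particular to the family is read from this count. The difference was 1.38 for LOC105035417, -2.52 for LOC105039892, 1.99 for LOC105043311, 1.11 for LOC105054213 and 1.67 for LOC105059528 (n = 3 libraries per group, limma adjusted p from 0.000253 to 0.00459). For LOC105039892, LOC105043311 and LOC105054213 the libraries of the stages did not overlap in either palm and the stages ran in opposite directions. For LOC105059528 and LOC105035417 they overlapped in Sd. The share of all loci whose stages separated in this way was not counted. The 5 loci were picked by the interaction on the same values, so the order of their stages is no further support. Each palm is 1 individual and each group 1 bunch, and the PR NSd libraries, which enter all 5 values, stood apart in the summed level of photosynthesis loci (560 to 601 RPKM, against 2579 to 4597 RPKM in the other groups), whose part was not tested. No group had enough libraries for a search for single high or low libraries.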

How the results depend on the processing

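Of 320 recomputed values of the 17 calls, 291 kept their side of the thresholds, 29 no longer passed and none changed direction, and 11 of the 17 calls passed under every alternative run. Part of these outcomes was fixed in advance. The looser thresholds were applied to the same fit and could lose no call. Leaving out a library outside the compared groups, or changing only the filter or the variance model, cannot move a fold change. The other 6 are LOC105035417 in NSd and in the interaction, LOC105039387 between the PR palms, LOC105044951 between the ripe palms, LOC105054213 in the interaction and LOC105056882 in NSd. With no filter on low loci, LOC105044951 between the ripe palms (limma adjusted p = 0.0259), LOC105035417 in the interaction and LOC105056882 in NSd (limma adjusted p = 0.0104) no longer passed, and 1 member was called between the ripe palms. At an adjusted p under 0.05 with no fold limit, 3 members were called in Sd, 11 in NSd, 4 between the ripe palms and 8 between the PR palms. At an unadjusted limma p under 0.05, the shares of all tested loci in these comparisons were 22.5%, 55%, 28.2% and 58.8%. The member counts under the alternatives show how the calls depend on the settings and are not read as a result about the family. Leaving out each library in turn gave 0 to 1 members in Sd, 4 to 7 in NSd, 1 to 3 between the ripe palms, 3 to 5 between the PR palms and 3 to 5 in the interaction. The count between the ripe palms was 1 without replicate 2, 4, 5, 6, 10 or 11. The causes were not tested. Rescaling by the median ratio, which moved the median of all loci in NSd to 0.02 against 0.31, gave 0, 5, 2, 3 and 4 members in Sd, in NSd, between the ripe palms, between the PR palms and in the interaction. Limma without a trend or with robust moderation gave the counts of the report, only the compared groups in the fit gave 3 between the ripe palms (with LOC105039892), and a pseudocount of 0.1 RPKM gave 8 in NSd and 6 between the PR palms. No paired analysis was possible because no replicate number occurs in more than 1 group. Depth limits loci under 1 RPKM, where group means rest on few reads.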
